A study of Mus musculus with 18 samples.

Results

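Thyroid hormone handling in the hepatocyte was followed through 6 transcripts: the plasma carrier gene Serpina7, the membrane transporter gene Slc16a10, the deiodinase gene Dio1, the receptor genes Thra and Thrb, and the hormone target gene Thrsp. They are 6 of the 37991 genes in the count files, taken by symbol from the authors' deposited tables of each treatment against PBS and joined by gene identifier to the counts. They were chosen with the differences from PBS in view, so their differences from PBS are given as a description. The 6 are tested only in comparisons between groups other than PBS. All 18 libraries were fitted together, so the PBS libraries still enter the filter on low counts, the scaling and the estimate of spread. The libraries came from total RNA of hepatocytes of male CD-1 mice, an outbred stock, sold cryopreserved and able to attach to culture plates. Each of 6 groups had 3 libraries. PBS was the vehicle, the siRNA group received an siRNA that targets transthyretin (Ttr), and 2 groups received only a REVERSIR, either with a scrambled sequence or against TTR. The last 2 groups, written siRNA + scrambled REVERSIR and siRNA + TTR REVERSIR, had siRNA together with 1 of these oligonucleotides. A REVERSIR is a short oligonucleotide that pairs with the siRNA's guide strand and undoes silencing, and the scrambled form is its sequence control. No genotype, dose, time or animal age is given in the labels, and all groups started from the same commercial hepatocyte product.

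Thyroid hormone circulates bound to thyroxine-binding globulin (Serpina7), transthyretin and albumin, all secreted by the liver, and transthyretin is the target of this siRNA. Thyroxine and triiodothyronine enter and leave the cell through membrane transporters such as the aromatic amino acid carrier encoded by Slc16a10, and selenium-containing deiodinases convert or inactivate them. In the nucleus the receptors encoded by Thra and Thrb pair with retinoid X receptors and switch target genes, and Thrb is the main form in liver. Thrsp, also known as Spot 14, is a classic target that supports fatty acid synthesis.

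Library totals ran from 1755819 to 10145265 counts, with the scrambled REVERSIR group lowest at 1755819 to 2896366. Levels are CPM after TMM scaling, and CPM per kilobase of exon where genes are compared. PBS replicates 1 and 2 stood apart, with 24.3% and 24.1% of their counts from mitochondrial ribosomal RNA (Wilson 95% intervals 24.31% to 24.37% and 24.05% to 24.12%, for counting error only) against 1.69% to 9.56% in the other 16 libraries, so differences from PBS were also computed without them. The siRNA was active: Ttr averaged 1111 ± 96.8 CPM (SD, n = 3) in PBS, 243 ± 19.1 with siRNA and 226 ± 0.691 with siRNA + scrambled REVERSIR. It averaged 1118 ± 47.6 with scrambled REVERSIR, 1265 ± 157 with TTR REVERSIR and 1054 ± 112 with siRNA + TTR REVERSIR. All 12 hepatocyte markers, with Ttr and Alb among them, were kept by the filter on low counts. Their summed level ran from 48838 to 63440 CPM over the libraries, and Alb alone averaged 41962 CPM. The summed markers of other liver cells were far lower, 276 to 381 CPM for Kupffer cells and macrophages, 120 to 162 for stellate cells and fibroblasts, 45.4 to 71.2 for endothelium and 9.84 to 16.4 for cholangiocytes, with no marker at 0 in every library. Of the markers in the counts, the filter kept 3 of 8, 5 of 9, 5 of 8 and 3 of 6 for these types in that order. The sums are not shares of cells. The labels do not state whether the 3 replicates were different cultures or animals, so p-values measure only the spread between these libraries, which may be technical. In bulk RNA, fewer cells of a type and less RNA per cell cannot be told apart.

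The promoter sequences of 2 members are shown. Serpina7 is the only member called in a comparison without PBS. Thrb is the only member with a window that holds the motif AGGTCA to which thyroid hormone receptors bind. A link between these letters and the levels was not tested. The sequences are those of RefSeq on GRCm38.p6, a newer build than that of the counts, and each run of 250 bases ends just before an annotated transcription start. Capitals mark AGGTCA, and GTTAAT or its reverse complement, a part of the site of the hepatocyte factor HNF1.
Serpina7 (chrX:139085237-139085486, minus strand): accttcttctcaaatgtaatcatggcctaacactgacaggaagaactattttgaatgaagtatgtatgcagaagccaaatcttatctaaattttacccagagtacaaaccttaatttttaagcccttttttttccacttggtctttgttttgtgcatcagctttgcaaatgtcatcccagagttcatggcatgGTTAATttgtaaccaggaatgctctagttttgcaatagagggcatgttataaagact
Thrb (chr14:17660710-17660959, plus strand): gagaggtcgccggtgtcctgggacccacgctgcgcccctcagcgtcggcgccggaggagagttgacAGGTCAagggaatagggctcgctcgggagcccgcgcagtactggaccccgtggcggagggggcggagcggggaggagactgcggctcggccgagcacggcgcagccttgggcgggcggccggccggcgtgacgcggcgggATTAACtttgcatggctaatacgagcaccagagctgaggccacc
In the Serpina7 window GTTAAT begins at position −57 from the start and AGGTCA was not found on either strand. In the Thrb window AGGTCA begins at −184, and GTTAAT lies on the other strand at −44, but the window of the other Thrb start, not shown, held neither. Windows were matched for 5 of the 6 genes, with none for Thra and 2 alternative starts each for Serpina7 and Thrb. The windows of Slc16a10, Dio1 and Thrsp held no AGGTCA, and among these only that of Slc16a10 held GTTAAT, at −232. Over 32851 windows of 300 bases, searched on both strands, 16.3% held AGGTCA, 7.1% held GTTAAT and 0.0152% held the repeat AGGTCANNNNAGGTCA. None of the members' windows held that repeat. The motifs do not overlap one another except that the repeat contains AGGTCA, and a match is a description of letters, not of a bound site.

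The 6 transcripts covered a wide range of abundance. Serpina7 (ENSMUSG00000031271, NCBIM37 chromosome X, 135613796 to 135619775, minus strand, 2448 exon bases) was the most abundant, with 200.9 ± 43.7 CPM (SD, n = 18 libraries), or 82.1 CPM per kilobase. That lay above 94.6% of the genes kept by the filter. Thrsp (ENSMUSG00000035686, chromosome 7, 104561448 to 104566240, minus strand, 1277 exon bases) came next with 51.1 ± 6.03 CPM, or 40.0 per kilobase. Slc16a10 (ENSMUSG00000019838, chromosome 10, 39753341 to 39862062, minus strand, 6146 exon bases) had 60.1 ± 4.78 CPM, which is 9.78 per kilobase. Lower down, Thrb (ENSMUSG00000021779, chromosome 14, 18493474 to 18870602, plus strand, 6622 exon bases) had 15.7 ± 2.05 CPM, or 2.37 per kilobase. Dio1 (ENSMUSG00000034785, chromosome 4, 106964070 to 106979774, minus strand, 1970 exon bases) reached only 2.18 ± 0.804 CPM, or 1.11 per kilobase. Thra (ENSMUSG00000058756, chromosome 11, 98601952 to 98630320, plus strand, 4614 exon bases) was the rarest, with 2.12 ± 0.814 CPM, or 0.459 per kilobase. All 6 genes are protein-coding, and all passed the filter, but Dio1 rested on 1 to 25 counts per library and Thra on 1 to 24.

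**Figure D1:**
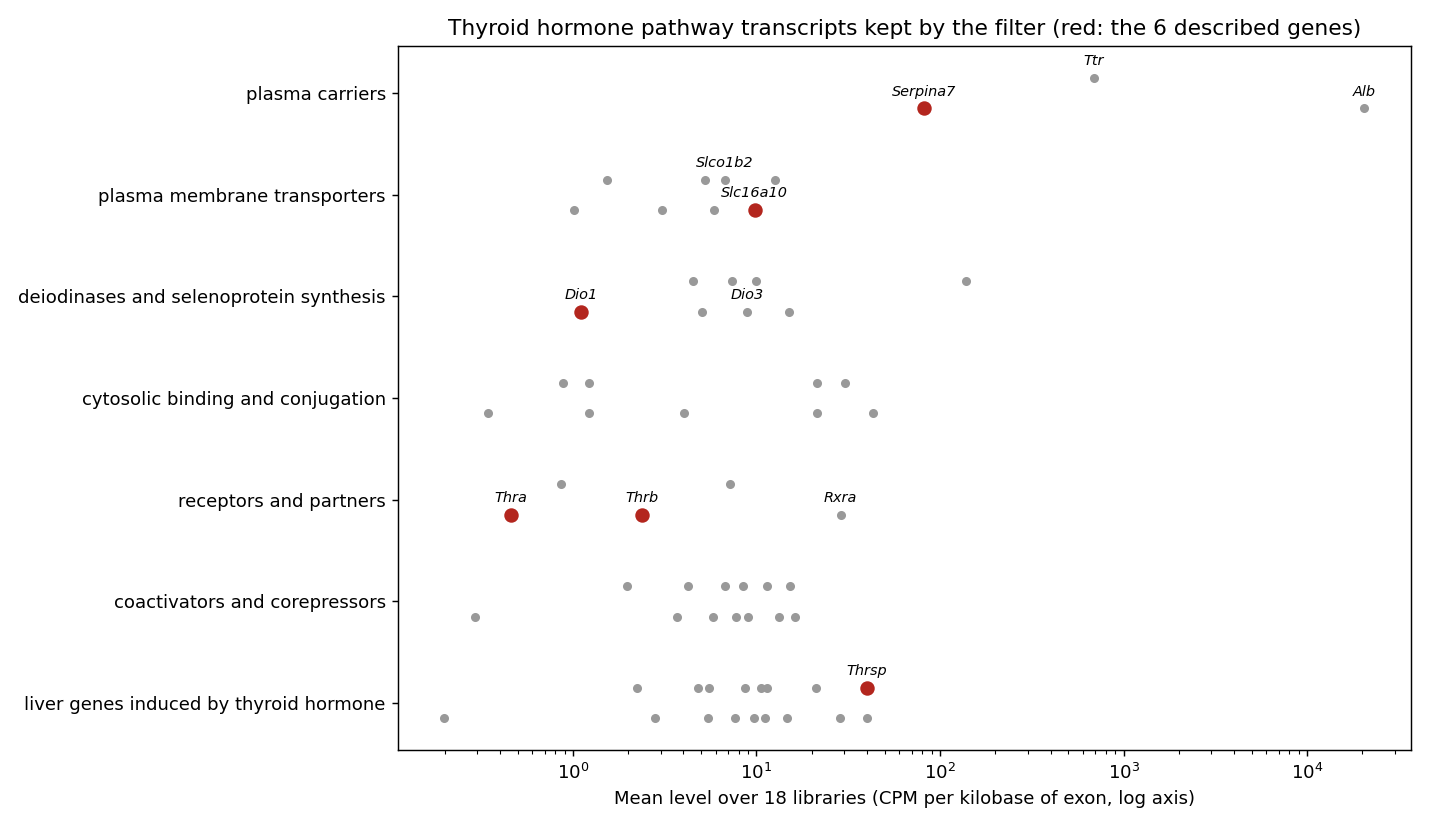
Mean level over 18 libraries, in CPM per kilobase of exon on a log axis, of the listed thyroid hormone pathway genes kept by the filter, grouped by role, with the 6 described genes in red. Serpina7 lies at 82.1 CPM per kilobase below Ttr and Alb, and Dio1 and Thra lie at 1.11 and 0.459.

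Among the carrier transcripts, Alb (albumin) averaged 20540 CPM per kilobase and Ttr 685.9, so Serpina7 was the least abundant of the 3. Serpina7 encodes thyroxine-binding globulin, the carrier with the highest affinity for thyroxine. In PBS its level was 177.7, 161.3 and 185.8 CPM in replicates 1 to 3, and with TTR REVERSIR it was 161.7, 207.4 and 156.2. With siRNA + scrambled REVERSIR it was 163.7, 168.2 and 206.8 CPM, and with siRNA + TTR REVERSIR it was 181.4, 150.4 and 180.0. These 4 groups overlapped one another, with means of 175 ± 12.5, 175 ± 28.1, 180 ± 23.7 and 171 ± 17.5 CPM (SD, n = 3). The other 2 groups stood higher. Serpina7 was at 202.0, 229.4 and 261.5 CPM with siRNA alone, a mean of 231 ± 29.8, and at 262.7, 277.8 and 281.7 with scrambled REVERSIR alone, a mean of 274 ± 10.04. Every library of scrambled REVERSIR alone lay above every other library of the series, by a narrow margin over the highest siRNA library, while the lowest siRNA library lay within the range of siRNA + scrambled REVERSIR.

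**Figure D2:**
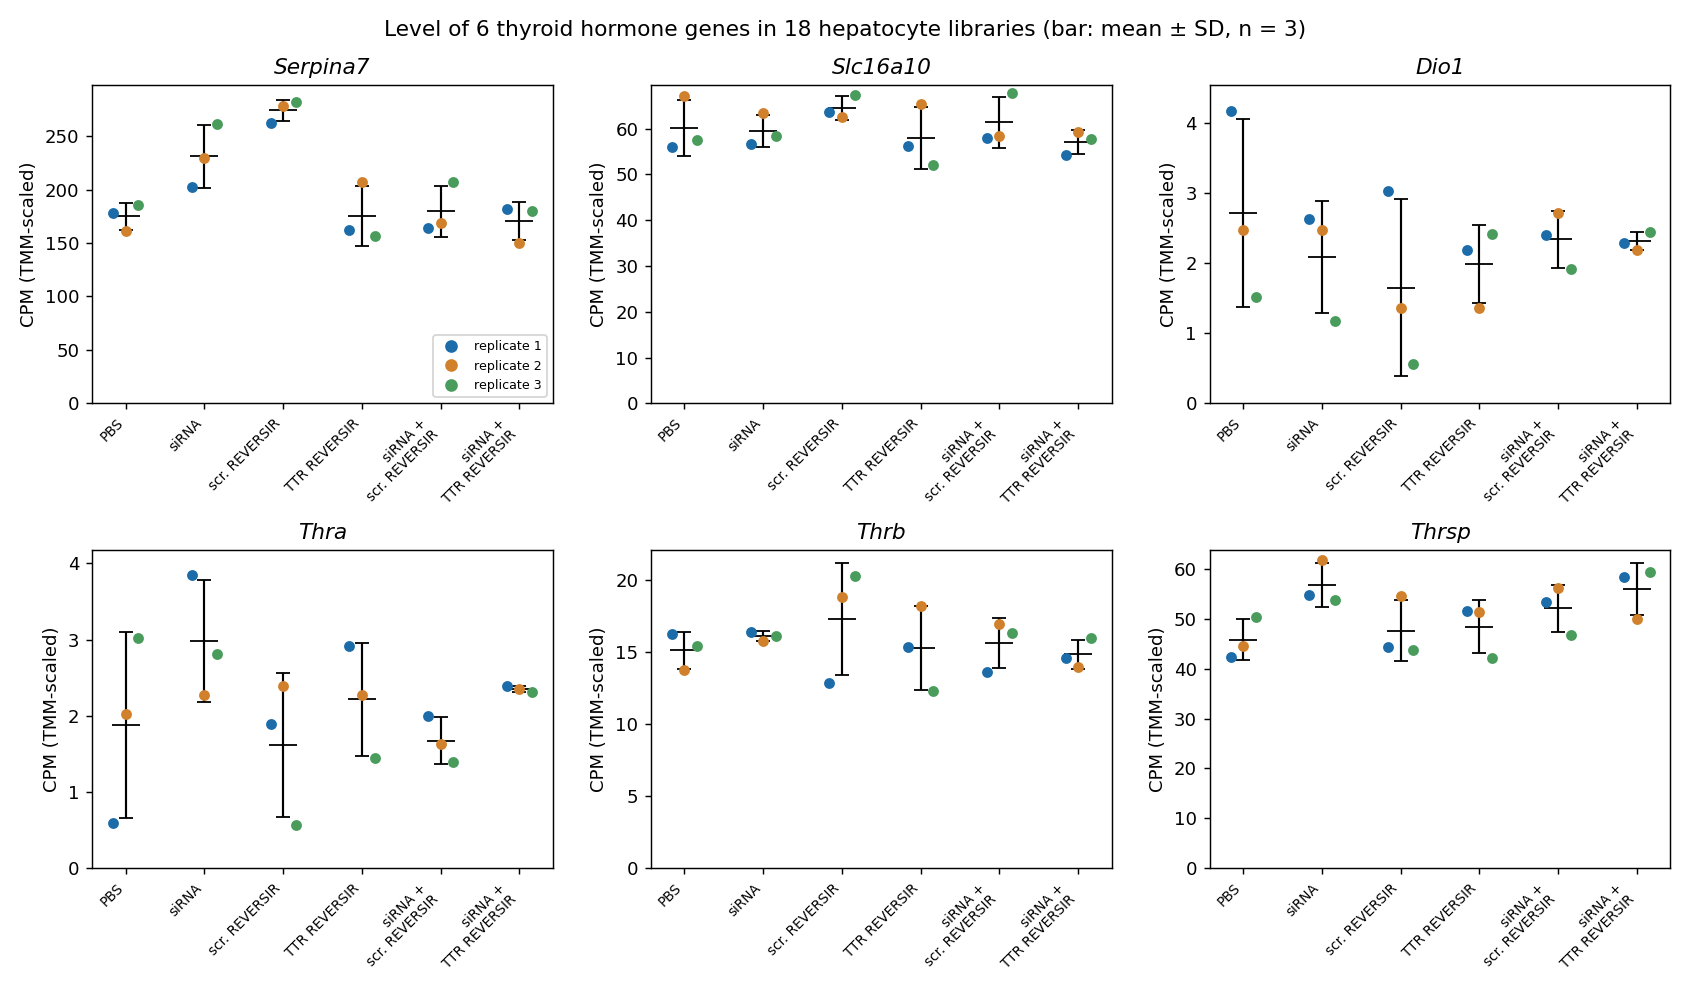
Level of each of the 6 genes in CPM (vertical axes, from 0) in the 18 libraries by group, with points coloured by replicate number and bars for the mean ± SD of 3 libraries. Serpina7 lies at 263 to 282 CPM in all 3 libraries of scrambled REVERSIR, while the other 5 genes show overlapping groups, apart from Slc16a10, Thra and Thrsp in a few pairs of groups.

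The treated groups differ in the siRNA, in the sequence of the REVERSIR or in whether a REVERSIR was given. Serpina7 passed the test in 2 of 6 comparisons between them, lower in both, and no other member passed in any of the 6. Both were against scrambled REVERSIR alone, the group with the smallest libraries, and the part of siRNA, sequence or library size was not tested. With TTR REVERSIR it was lower than with scrambled REVERSIR by −0.66 ± 0.111 on the log2 scale (SE; 95% interval −0.89 to −0.43; edgeR quasi-likelihood test with Benjamini-Hochberg adjustment over 11153 genes, adjusted p = 0.0193), or 1.58-fold. Only 0.0179% of genes, 2 of 11153, passed in that comparison, and the other was Aldh1a1, which encodes a retinal dehydrogenase (−0.63 ± 0.101, edgeR adjusted p = 0.0193). With siRNA + scrambled REVERSIR, Serpina7 was lower than with scrambled REVERSIR by −0.61 ± 0.107 (−0.83 to −0.39, edgeR adjusted p = 0.0368), or 1.53-fold. There too 0.0179% of genes passed, the other being Ttr itself. In both comparisons the groups did not overlap for 1 of the 6 members, Serpina7, against 10.8% and 14.5% of all genes. Both comparisons share the scrambled REVERSIR libraries, whose difference from PBS was in view when the members were chosen, so they are not independent of that choice.

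Both calls depend on single libraries. The call against TTR REVERSIR was lost without scrambled REVERSIR replicate 2 or 3 (edgeR adjusted p = 0.284 and 0.138) and without TTR REVERSIR replicate 1 or 3 (0.368 and 0.285), and the log2 difference stayed between −0.78 and −0.59 as each library was left out in turn. The call of Aldh1a1 in that comparison was lost for 4 of the 18 libraries too, with edgeR adjusted p up to 0.285. The call against siRNA + scrambled REVERSIR was lost for 7 of the 18 libraries left out. They were scrambled REVERSIR replicates 2 and 3 (0.257 and 0.334), siRNA + scrambled REVERSIR replicates 1 and 2 (0.625 and 0.348), PBS replicates 1 and 2 (0.0629 and 0.0570) and siRNA replicate 2 (0.0511). Scaling by library totals alone gave Serpina7 an edgeR adjusted p of 1.00 in both, with log2 differences of −0.64 ± 0.147 and −0.58 ± 0.145 (SE). Those differences were close to the main ones, and their standard errors were larger. That fit drops the TMM factors, which were 0.747 and 0.758 for PBS replicates 1 and 2. The part of these libraries in the loss was not tested.

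Against siRNA alone, Serpina7 was lower with siRNA + TTR REVERSIR by −0.44 ± 0.103 on the log2 scale (95% interval −0.65 to −0.23), and the groups did not overlap. This did not pass (edgeR adjusted p = 0.556), although Serpina7 ranked 5 of 11153 genes by p. Only 0.00897% of genes passed there, and the groups did not overlap for 1 of 6 members, Serpina7, against 13.3% of all genes. DESeq2 gave adjusted p = 0.0356 for the same difference. With siRNA + scrambled REVERSIR the difference from siRNA was −0.37 ± 0.103 (−0.58 to −0.16, edgeR adjusted p = 1.00), and the groups overlapped. In that comparison 0.00% of genes passed with edgeR or DESeq2, and 415 had an unadjusted edgeR p under 0.05, among them Serpina7 and Thra. These 2 comparisons share the siRNA libraries with the comparison of siRNA against PBS.

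The 2 comparisons in which neither PBS, siRNA alone nor scrambled REVERSIR alone is a compared group leave out the groups in which Serpina7 stood highest. The differences of their groups from PBS were also in view when the members were chosen, so they are not independent of that choice either. Serpina7 differed by −0.07 ± 0.103 between siRNA + TTR REVERSIR and siRNA + scrambled REVERSIR (95% interval −0.28 to 0.15), where 0.00897% of genes passed. Between siRNA + TTR REVERSIR and TTR REVERSIR it differed by −0.02 ± 0.107 (−0.24 to 0.20), where 0.00% of genes passed with edgeR or DESeq2 and 495 had an unadjusted edgeR p under 0.05. In these 2 comparisons 0 of 6 members were called, and in the second the groups overlapped for all 6 members, while 1115 of 11153 genes were without overlap.

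Another 2 tests, an interaction and a joint test, both use libraries of scrambled REVERSIR alone, and the joint test also those of siRNA alone. The differences of both groups from PBS were in view when the members were chosen, so neither test is independent of that choice. The interaction asks whether the effect of siRNA depends on which REVERSIR is present. For Serpina7 it was 0.60 ± 0.151 (0.28 to 0.91), with an unadjusted p of 0.000613 and an edgeR adjusted p of 0.889, so it did not pass, and 0.00897% of genes, which is Ttr alone, did. A joint test of any difference among the 5 treated groups called Serpina7 (edgeR adjusted p = 0.00804), with Ttr and Aldh1a1 as the only others, 0.0269% of genes. That call was lost without scrambled REVERSIR replicate 2 or replicate 3, and with library totals alone.

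**Figure D3:**
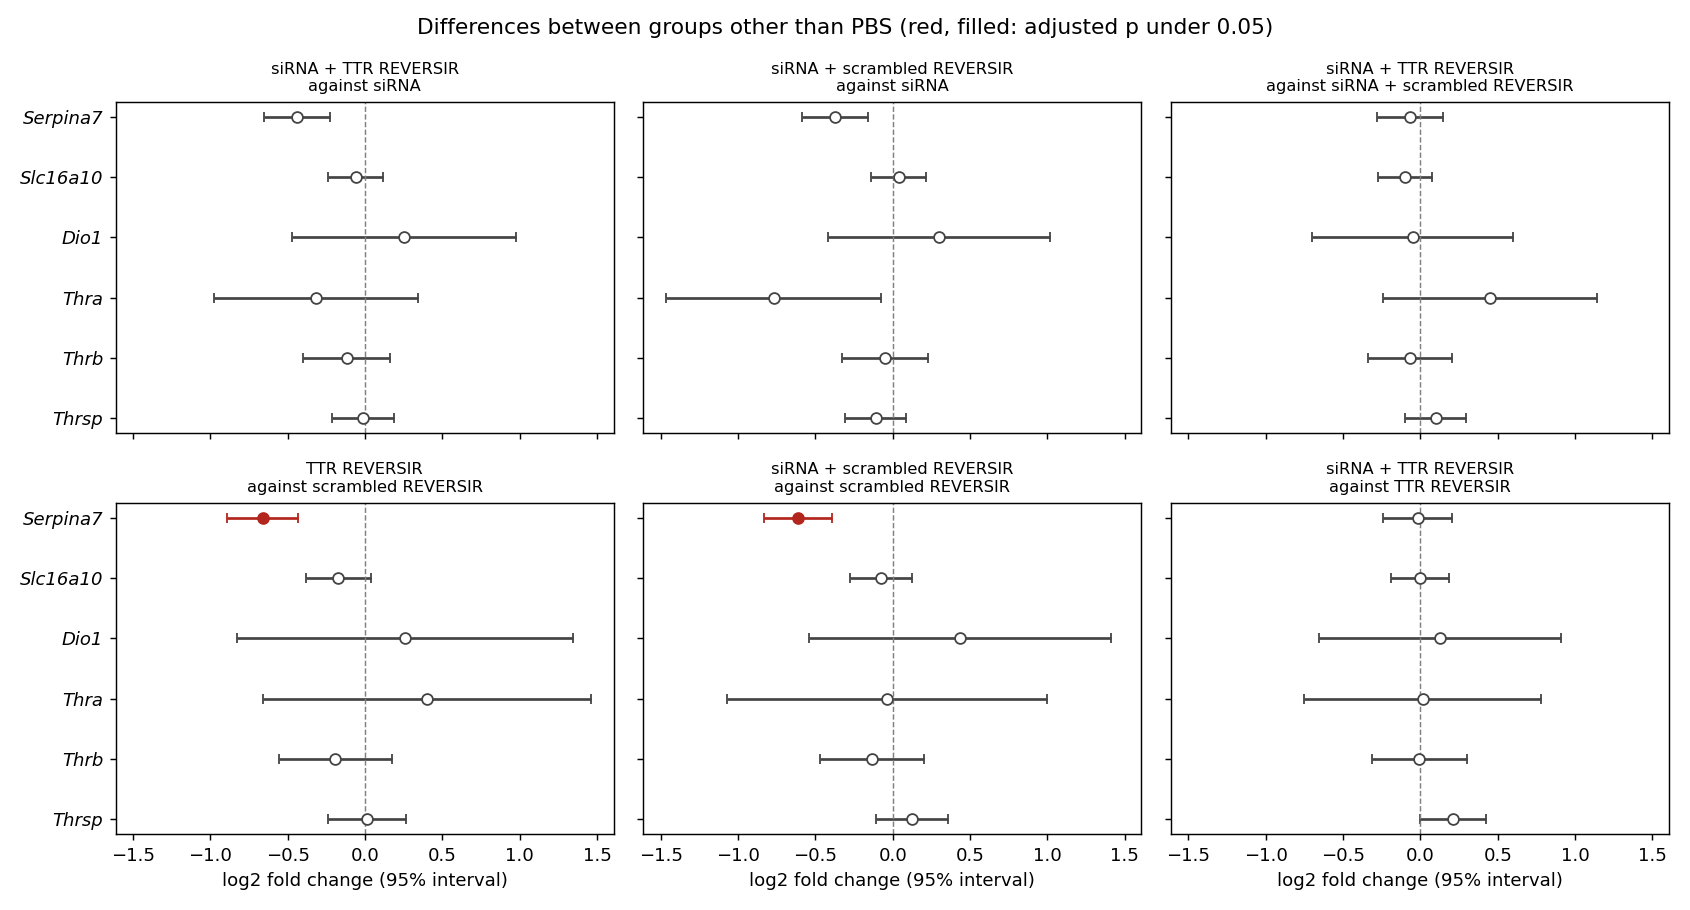
Log2 fold change (horizontal axes) of the 6 genes in the 6 comparisons between groups other than PBS, with 95% intervals from the edgeR fit, filled red where the adjusted p is under 0.05. Serpina7 is red at −0.66 and −0.61 against scrambled REVERSIR, and the intervals of Dio1 and Thra are the widest.

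The levels of Serpina7 did not follow those of Ttr, the carrier that was silenced. Ttr was low in both siRNA groups without TTR REVERSIR, at means of 243 and 226 CPM, where Serpina7 averaged 231 and 180. With scrambled REVERSIR, where Serpina7 was highest, Ttr averaged 1118 CPM against 1111 in PBS. Library size moved with Serpina7 in part: the 3 libraries of scrambled REVERSIR had 1755819 to 2896366 counts, and in 4 of 6 groups the shallowest library had the highest Serpina7 level, while in 2 it had the lowest. The part of library size in the differences was not tested. The summed hepatocyte markers in scrambled REVERSIR, 52894 to 54985 CPM, lay within the range of the other groups. With siRNA alone, where Serpina7 was next highest, they were 48838 to 53259 CPM, against 53621 to 63440 in PBS. That sum includes Ttr, which averaged 243 CPM with siRNA and 1111 in PBS, so the silencing itself lowers it. The ranges were not computed without Ttr. The stellate cell and fibroblast markers were 120 to 130 CPM with siRNA alone against 146 to 151 in PBS. The part of these markers in the Serpina7 levels was not tested.

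**Figure D4:**
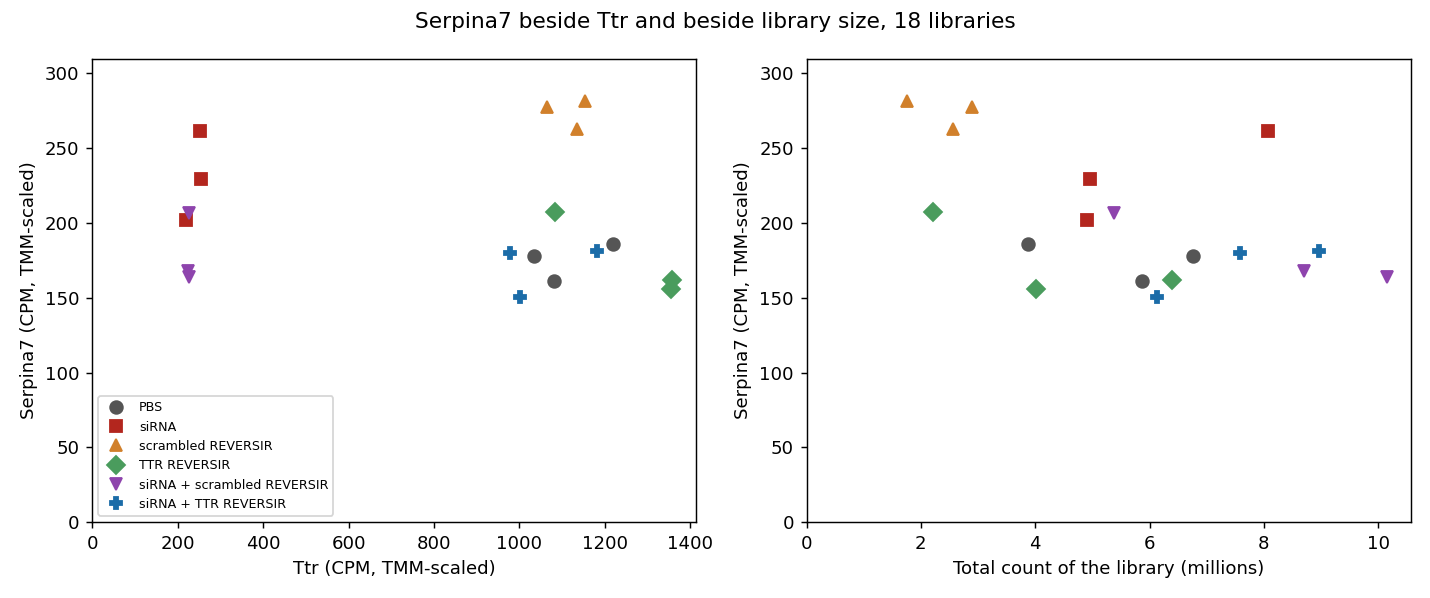
Serpina7 level in CPM (vertical axes) in each of the 18 libraries against the Ttr level in CPM (left) and against the total count of the library (right), with 1 marker shape and colour per group. The scrambled REVERSIR libraries lie at 263 to 282 CPM of Serpina7 beside Ttr levels like those of PBS and at 1755819 to 2896366 counts.

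Slc16a10 encodes an exporter and importer of aromatic amino acids and thyroid hormones at the cell surface. Its level varied little, from 52.1 to 67.9 CPM over the 18 libraries, and its groups overlapped in all 11 comparisons made. The order of the group means was scrambled REVERSIR (64.5 ± 2.60 CPM, SD, n = 3), siRNA + scrambled REVERSIR (61.4 ± 5.63), PBS (60.2 ± 6.07), siRNA (59.5 ± 3.46), TTR REVERSIR (57.9 ± 6.84) and siRNA + TTR REVERSIR (57.1 ± 2.64), and no neighbours in that order differed beyond their spread. The first and the last did not overlap, but they were picked as the extremes of that order and are not among the 11 comparisons. The share of all genes without overlap was not computed for that pair, so nothing is read from it. Over the 6 comparisons without PBS, its log2 differences ran from −0.17 to 0.04, with 95% intervals within −0.38 to 0.21 and a smallest edgeR adjusted p of 0.748. Per kilobase Slc16a10 was second among the 8 listed transporters that passed the filter, at 9.78 CPM per kilobase. The organic anion transporter gene Slco1a1 was above it at 12.6, and Slco1b2 (6.73) and the bile acid uptake gene Slc10a1 (5.84) followed.

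Dio1 encodes the outer and inner ring deiodinase of liver, which makes triiodothyronine from thyroxine. It was close to the limit of detection, and its group totals were 13 to 60 counts (exact Poisson 95% interval 6.92 to 22.2 for 13 counts and 45.8 to 77.2 for 60, for counting error only). Group means ran from 1.65 ± 1.26 CPM (SD, n = 3) with scrambled REVERSIR to 2.72 ± 1.34 in PBS, and every pair of groups overlapped. The 3 PBS libraries themselves were at 4.17, 2.48 and 1.51 CPM, a wider range than that between group means. In the 6 comparisons without PBS its log2 differences ran from −0.05 to 0.43, with 95% intervals that reached from −0.83 to 1.41 and no call, so that differences of the size seen for Serpina7 were not detectable at this depth.

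Dio3, which encodes the deiodinase that inactivates both hormones and was singled out after its values were seen, was more abundant than Dio1 in 18 of 18 libraries. Its level was 18.1 ± 2.62 CPM (SD, n = 18), with a range of 10.7 to 22.8. Per kilobase the ratio of Dio3 to Dio1 was 8.03 for the means, and 4.34 to 18.4 over single libraries. Dio3 was called in none of the comparisons with edgeR; its largest difference without PBS was 0.31 ± 0.176 on the log2 scale for TTR REVERSIR against scrambled REVERSIR (edgeR adjusted p = 0.740). Dio2, the activating deiodinase of other tissues, had 0 of 101167821 counts, which allows up to 0.0297 CPM over the series. The enzyme Sephs2, which makes the selenium donor that deiodinases need, had 138.7 CPM per kilobase and was the highest of the selenoprotein synthesis genes.

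Of the 2 receptor transcripts, Thrb was the more abundant in every library. The ratio of Thrb to Thra in CPM per kilobase was 5.16 for the means and ran from 2.97 to 25.1 over the libraries. Thrb group means ran from 14.8 ± 1.04 CPM (SD, n = 3) with siRNA + TTR REVERSIR to 17.3 ± 3.91 with scrambled REVERSIR, and all groups overlapped. The spread within scrambled REVERSIR, 12.9, 18.8 and 20.2 CPM, was wider than the range of the 6 means. No comparison without PBS called Thrb, and its log2 differences there lay between −0.19 and −0.01 with 95% intervals within −0.56 to 0.30. Their retinoid X receptor partner Rxra had 28.8 CPM per kilobase, against 7.16 for Rxrb and 0.862 for Rxrg.

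Thra was at 3.85, 2.28 and 2.81 CPM with siRNA, from 19, 12 and 24 counts. With siRNA + scrambled REVERSIR it was at 2.00, 1.63 and 1.39 CPM, from 20, 15 and 8 counts, and with siRNA + TTR REVERSIR at 2.40, 2.35 and 2.32 CPM. The siRNA + scrambled REVERSIR group thus did not overlap either of the other 2 groups that had the siRNA. Its log2 difference from siRNA was −0.77 ± 0.337 (SE; 95% interval −1.46 to −0.07; unadjusted p = 0.0316, edgeR adjusted p = 1.00), and siRNA + TTR REVERSIR differed from it by 0.45 ± 0.335 (edgeR adjusted p = 1.00). Neither passed, and Thra was the 1 member of 6 without overlap in each, against 12.4% and 9.32% of all genes. Thra shares 263 exon bases, 5.7% of its own, with Nr1d1 on the opposite strand. No source used here gives the strand of counting, so reads from Thra and Nr1d1 cannot be told apart there, and at 1 to 24 counts per library the Thra values are uncertain for that reason too.

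Thrsp encodes a small nuclear protein of lipogenic tissues and responds quickly to triiodothyronine in liver. Its level was 42.4, 44.6 and 50.4 CPM in PBS, 54.7, 61.9 and 53.8 with siRNA, and 44.3, 54.7 and 43.9 with scrambled REVERSIR. It was 51.7, 51.4 and 42.2 CPM with TTR REVERSIR, 53.4, 56.1 and 46.9 with siRNA + scrambled REVERSIR, and 58.4, 49.9 and 59.5 with siRNA + TTR REVERSIR. The 3 groups that received the siRNA had the 3 highest means (56.8 ± 4.41, 52.1 ± 4.76 and 55.9 ± 5.24, against 45.8 ± 4.13 to 48.4 ± 5.36 CPM, SD, n = 3), but neighbouring groups overlapped. That order holds the differences from PBS that were in view when the members were chosen, so it is a description only. In 2 comparisons the siRNA was added to a REVERSIR, and in neither is PBS or siRNA alone a compared group. The differences of their groups from PBS were also in view when the members were chosen, so neither comparison is independent of that choice. Between siRNA + TTR REVERSIR and TTR REVERSIR, Thrsp differed by 0.21 ± 0.103 on the log2 scale (95% interval 0.00 to 0.43). This did not pass (unadjusted p = 0.0497, edgeR adjusted p = 1.00). With the scrambled REVERSIR on both sides the siRNA difference was 0.13 ± 0.114 (−0.11 to 0.36, edgeR adjusted p = 0.900). The 4 other comparisons without PBS gave Thrsp log2 differences of −0.11 to 0.10.

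Against PBS, the values that were in view when the members were chosen are given as a description. Serpina7 differed by 0.41 ± 0.106 on the log2 scale with siRNA and by 0.65 ± 0.109 with scrambled REVERSIR, and by −0.02 ± 0.109, 0.03 ± 0.106 and −0.03 ± 0.106 with TTR REVERSIR, siRNA + scrambled REVERSIR and siRNA + TTR REVERSIR. The edgeR threshold was passed by 2.62% of all genes with siRNA and by 0.421% with scrambled REVERSIR, and by 1 of 6 members, Serpina7, in each; since these contrasts chose the members, nothing is read from that count. Without PBS replicates 1 and 2, the 2 differences of Serpina7 were 0.33 ± 0.152 and 0.56 ± 0.156. The authors' deposited tables list log2 fold changes of 0.32 for siRNA (adjusted p = 0.0134) and 0.51 for scrambled REVERSIR (adjusted p = 9.69e-05), the only 2 Serpina7 entries under 0.05 there. With TTR REVERSIR, siRNA + scrambled REVERSIR and siRNA + TTR REVERSIR, 0 of 6 members were called, against 0.699%, 0.610% and 0.789% of all genes.

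Thrsp differed from PBS by 0.31 ± 0.105 with siRNA and by 0.30 ± 0.103 with siRNA + TTR REVERSIR, which became 0.17 ± 0.153 and 0.16 ± 0.151 without PBS replicates 1 and 2. The authors' deposited tables give Thrsp 0.24 (adjusted p = 0.0742) and 0.23 (adjusted p = 0.112) for those groups. Serpina7 and Thrsp were the 2 members of 6 whose siRNA and PBS groups did not overlap, against 19.4% of all genes, and Serpina7 the only 1 with scrambled REVERSIR, against 14.5%. With TTR REVERSIR, siRNA + scrambled REVERSIR and siRNA + TTR REVERSIR the 6 members overlapped PBS, while 1343, 2143 and 1789 of 11153 genes did not. PBS replicate 3 held only 6 counts of Dio1 and 12 of Thra. The PBS differences of these rare transcripts moved, with wide standard errors, without PBS replicates 1 and 2. For siRNA, Dio1 went from −0.53 ± 0.379 to 0.36 ± 0.639 without them, and Thra from 0.71 ± 0.388 to −0.04 ± 0.459. Slc16a10 and Thrb stayed within −0.08 to 0.17 on the log2 scale in all 5 groups with all PBS libraries, and within −0.04 to 0.16 without PBS replicates 1 and 2. Scaling by library totals alone in place of TMM raised the median difference of all genes from PBS by 0.29 to 0.33 in the 5 groups, so the sign of a small difference from PBS depends on the scaling. By library totals alone Serpina7 stood at 0.71 for siRNA and 0.92 for scrambled REVERSIR and at 0.28 to 0.34 in the other 3 groups.

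**Figure D5:**
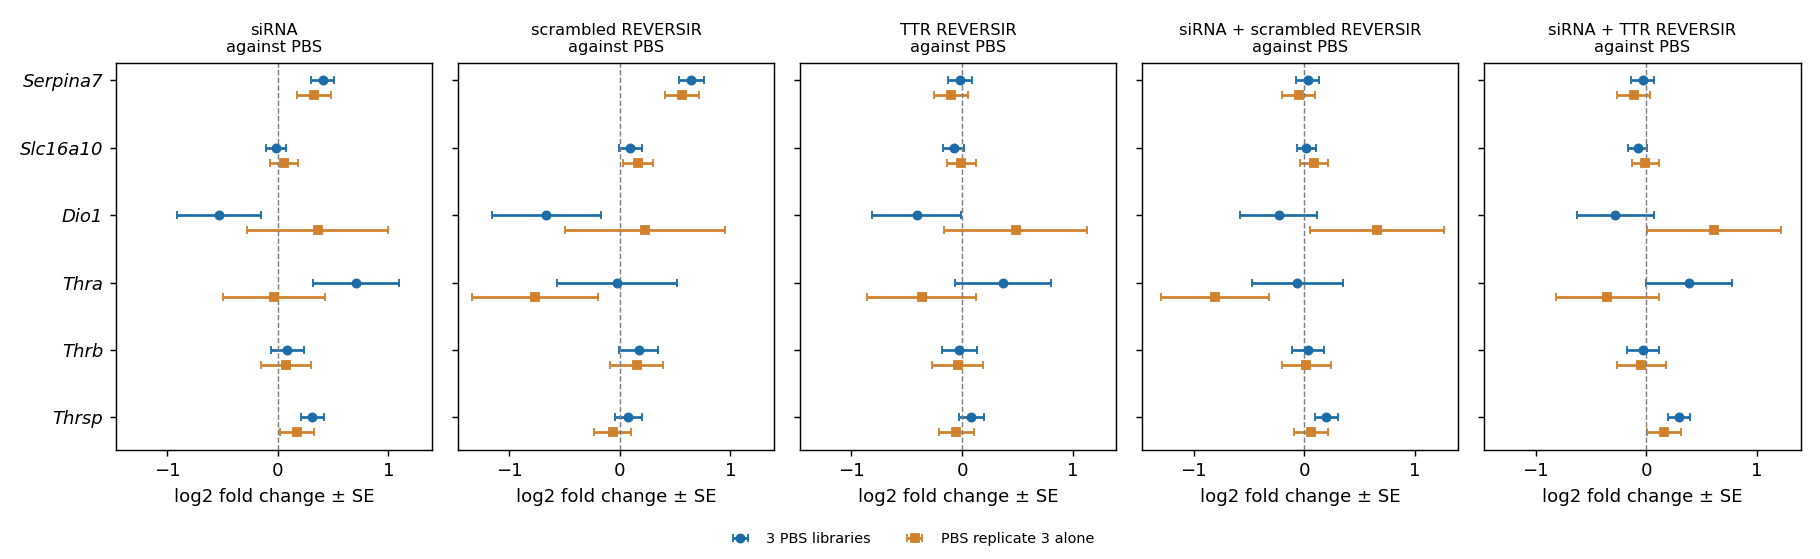
Log2 fold change ± SE (horizontal axes) of the 6 genes in each treated group against all 3 PBS libraries (blue circles) and against PBS replicate 3 alone (orange squares). Serpina7 stays above 0 with siRNA and scrambled REVERSIR in both, while Dio1 and Thra change side for siRNA.

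Beyond the 6, a list of 63 thyroid hormone genes was followed, of which 57 passed the filter. In the comparisons without PBS, the only listed gene that passed was Ttr, in the 3 that set siRNA alone or siRNA + scrambled REVERSIR against siRNA + TTR REVERSIR or against scrambled REVERSIR alone and in the interaction. Against PBS, 3 of 57 passed with siRNA, against 2.62% of all genes, and all 3 were lower. They were Ttr, which the siRNA targets, the glucuronidation gene Ugt1a1 (−0.54 ± 0.132, edgeR adjusted p = 0.0308) and the corepressor subunit gene Tbl1xr1 (−0.29 ± 0.070, adjusted p = 0.0285). Ugt1a1 shares 58.9% of its exon bases with other genes of the Ugt1a cluster, so its counts are uncertain. With scrambled REVERSIR 1 of 57 passed, against 0.421% of all genes: the liver uptake transporter gene Slco1b2 was lower (−0.56 ± 0.114, edgeR adjusted p = 0.0314). With TTR REVERSIR 2 of 57 passed, against 0.699% of all genes, and both were lower: Slco1b2 (−0.53 ± 0.102, edgeR adjusted p = 0.0357) and Tbl1xr1 (−0.30 ± 0.073, adjusted p = 0.0472). With siRNA + scrambled REVERSIR only Ttr passed, lower, against 0.610% of all genes. With siRNA + TTR REVERSIR 0 of 57 passed with edgeR, against 0.789% of all genes, while DESeq2 called 2 of the 57. In that comparison 13 of the 57 had an unadjusted edgeR p under 0.05, beside 1974 of all 11153 genes. Without PBS replicates 1 and 2, only Ttr remained past the threshold, and the Slco1b2 differences were −0.59 and −0.56, that of Ugt1a1 −0.39 and those of Tbl1xr1 −0.23 and −0.25. With library totals alone none of these 5 calls held: Slco1b2 stood at −0.27 and −0.21 (edgeR adjusted p = 0.197 and 0.250), Ugt1a1 at −0.20 (0.267) and Tbl1xr1 at 0.028 and 0.0081. Fitting only the compared groups also lost all 5, with edgeR adjusted p from 0.0611 to 0.287. As each of the 18 libraries was left out in turn, the Slco1b2 calls were lost 6 and 4 times, that of Ugt1a1 4 times and those of Tbl1xr1 5 and 15 times, with edgeR adjusted p up to 0.382. Of the 16 other hormone-induced liver genes that passed the filter, among them the lipogenic genes Me1, Fasn and Acaca, 0 were called with edgeR in any comparison. At most 5 of them had an unadjusted p under 0.05, with siRNA + TTR REVERSIR against PBS, where 1974 of all 11153 genes did, and the median of all 57 lay between −0.06 and 0.04 on the log2 scale.

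By likeness of log2 CPM over the 18 libraries, among 8479 genes, Serpina7 was closest to Gjb2 (Pearson r = 0.92), Nt5e (0.90) and Aldh1a1 (0.89). Gjb2 encodes a gap junction protein, Nt5e an enzyme that releases adenosine at the cell surface, and Aldh1a1 a retinal dehydrogenase. After the group means were removed, the values were 0.71, 0.65 and 0.74. The genes were picked by a correlation that already includes these deviations, so these values are not a separate check. Aldh1a1 averaged 215 ± 15.7 CPM (SD, n = 3) with scrambled REVERSIR and 139 ± 7.49 with TTR REVERSIR, and 166 ± 18.1 in PBS. Gjb2 averaged 74.5 ± 6.15, 56.7 ± 4.63 and 58.4 ± 0.592 CPM in the same groups. The genes most like Slc16a10 were Bag3 (0.76), Akr1c14 (0.76) and Vcpkmt (0.75), those most like Thrb were Smc5 (0.84), Nxf1 (0.80) and Echdc1 (0.79), and those most like Thrsp were Cyp2d22 (0.79), Rn7sk (0.77) and Lpar6 (0.76). For the rare Dio1 they were Yif1b (0.85), Tmem150a (0.84) and Lhpp (0.81), and for Thra Bnip1 (0.86), Hip1r (0.81) and Gm15487 (0.81). All these correlations are descriptions over libraries that share depth and preparation, and each was picked as among the highest of the genes ranked. Among the members themselves the correlation was highest for Thra and Thrsp (0.62) and lowest for Dio1 and Thrb (−0.60).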

How the data were processed

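RNA sequencing libraries, 18 in 6 groups of 3, were grouped by their titles. The authors deposited whole-number counts per gene for each library. Per the submitters' processing notes, STAR, DESeq2 and the build NCBIM37 were used; no source used here gives their versions, the counting tool or its strand. For each treatment against PBS the authors deposited a DESeq2 table, with a mean signal per gene, a log2 fold change and its error, a Wald score, and p-values. The members, gene lists and tests were chosen with earlier results of these data known.

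From the counts deposited by the authors, genes were kept by filterByExpr by group (11153 of 37991), scaled by TMM and fitted in all 18 libraries with edgeR 4.0.16 (quasi-likelihood, group as the only term, 12 residual degrees of freedom) in R 4.3.3, with Benjamini-Hochberg adjustment and a threshold of 0.05. Standard errors came from the F statistic. Log2 CPM used a prior count of 2. Annotation of the same build gave positions and exon lengths. The pipeline was tested on simulated data. Genes were named by a rule: the 6 members, Ttr, listed pathway genes past the threshold (at most 4 per role), the 3 genes most like each member (mean log2 CPM of at least 3), and genes whose exons overlap a member's; Dio3 and the values of other listed genes were added after their levels were seen. Of 69 listed symbols, 63 are not members, and 6 of these did not pass the filter. Alternatives were other scalings, DESeq2 1.42.0, no filter, a replicate block, fits on the compared groups only, mitochondrial genes removed, and leaving out libraries. The sequence of the siRNA is not used here.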

Additional observations from a re-analysis of the deposited data

How the results depend on the processing

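Wherever a call of the 6 members changed with the setting, the gene was Serpina7. Scaling by library totals alone left 0 members called in place of 1 for TTR REVERSIR against scrambled REVERSIR, for siRNA + scrambled REVERSIR against scrambled REVERSIR and for any difference among the 5 treated groups. Leaving out 1 library in turn gave 0 to 1 members called in each of these 3, and 0 in the other comparisons without PBS. Testing without a filter called 1 member in place of 0 for siRNA + TTR REVERSIR against siRNA, for siRNA + scrambled REVERSIR against siRNA and for the interaction, and DESeq2 called 1 in place of 0 for siRNA + TTR REVERSIR against siRNA. Without the filter, counts over all genes rose too, from 2 to 42 for TTR REVERSIR against scrambled REVERSIR. DESeq2 called 186 in place of 47 genes for scrambled REVERSIR against PBS and 42 in place of 3 for any difference. The cause was not tested. Tbl1xr1 changed sign with library totals alone, to 0.028 for siRNA and 0.0081 for TTR REVERSIR against PBS, where that scaling lifts all genes by about 0.3. Replicate numbers did not pair the libraries: over 45 pairs with the same number the correlations of deviations had a median of −0.013 and a lowest value of −0.15, with 6 over 0.1, and 7 of 18 libraries correlated best with their own number. Replicate numbers follow the titles; the deposited counts of siRNA + scrambled REVERSIR replicate 2 are themselves marked as replicate 1, so the number of that library is uncertain. With the replicate block 1 member was called in each of the same 3 comparisons and 0 in the others; Serpina7 had edgeR adjusted p = 0.0152 against TTR REVERSIR and 0.0251 against siRNA + scrambled REVERSIR, and Tbl1xr1 lost its call with TTR REVERSIR (0.0640). Depth limits Dio1 and Thra most, at 1 to 25 counts per library.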
